A study of Mus musculus with 2 samples.

Results

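The genes described are 7 receptors through which leukocytes sense metabolites and chemoattractants: Ffar2, Hcar2, Gpr84, Ptafr, Fpr1, Fpr2 and Ltb4r1. They were taken from a list, 7 of the 32285 features in the deposited count matrices, and all 7 were detected in both libraries. The list was selected on earlier results of these libraries, namely levels in neutrophils and ratios between the libraries, so both are given for the members as a description. The cells were CD45+ leukocytes, isolated with magnetic beads from the hearts of wild-type male C57BL/6J mice aged 8 weeks. Every mouse had the left anterior descending coronary artery occluded for 60 min and the heart reperfused for 24 h, so no library comes from an uninjured heart. The first group had sham surgery in place of splenectomy (its sample label names only ischaemia-reperfusion, and the sham surgery is given in the series' design text), and the second group had the spleen removed. Each group is 1 library of the 10x 3' assay, and how many mice were pooled into it is unknown. With no replicate library, the groups could not be tested against each other, and values "after splenectomy" or "after sham surgery" are those of that 1 library. All intervals are exact 95% intervals that cover counting error only, and reads of 1 library are not independent animals.

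All of these receptors sit in the cell membrane and pass their signal on through G proteins, mostly of the Gi class, to calcium release, migration and the oxidative burst. Ffar2 binds short-chain fatty acids such as acetate, Hcar2 binds the ketone body beta-hydroxybutyrate and niacin, and Gpr84 responds to medium-chain fatty acids. Ptafr binds platelet-activating factor, Fpr1 and Fpr2 bind formylated peptides released by bacteria and by damaged mitochondria, and Ltb4r1 (BLT1) is the high-affinity receptor of leukotriene B4. Neutrophils, the first blood cells to enter a reperfused infarct in large numbers, use the formyl peptide and leukotriene receptors to find their way to injured tissue.

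On the mouse build mm10 (GENCODE M21) the members lie on 6 chromosomes. Ffar2 is at chr7:30818348-30823775 on the minus strand, Hcar2 at chr5:123863570-123865499 (minus), Gpr84 at chr15:103308235-103310612 (minus), Ptafr at chr4:132564067-132582683 (plus) and Ltb4r1 at chr14:55765962-55768494 (plus). Fpr1 at chr17:17876471-17883940 (minus) and Fpr2 at chr17:17887824-17893952 (plus) are neighbours that start 3883 bases apart and are transcribed away from each other. In 6 of the 7 genes the annotated transcripts have 1 coding exon, and Fpr2 has up to 2. Fpr2 overlaps Fpr3 on the same strand over 6101 bases, and 31.5% of the 50-base windows of its transcripts also occur in other genes, among them the predicted gene Gm5966. Counts of Fpr2 are uncertain for that reason. Gpr84 overlaps the antisense gene Gm49482 over 843 bases, and the use of strand in counting is unknown. The shared share was 1.59% for Ptafr and below 0.5% for each of the other 5 members.

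Promoter windows from RefSeq (build GRCm38.p6, 250 bases before to 50 after a transcript start) were found for 6 of the 7 members, 9 windows in all. They are shown for the genes that differed most between the libraries in neutrophil-like cells, with the gene's strand read 5′ to 3′ and motif matches in capitals. The motifs searched on both strands were TTGCNNAA (C/EBP), GAGGAAGT (PU.1) and TGANTCA (AP-1). They occur in 10.8%, 3.2% and 7.81% of the 32817 windows of this length in the table. Patterns for NF-kB and the interferon response element were also searched in an earlier pass, without a match in the windows of the members.
Ffar2, chr7:30823726-30824025, minus strand: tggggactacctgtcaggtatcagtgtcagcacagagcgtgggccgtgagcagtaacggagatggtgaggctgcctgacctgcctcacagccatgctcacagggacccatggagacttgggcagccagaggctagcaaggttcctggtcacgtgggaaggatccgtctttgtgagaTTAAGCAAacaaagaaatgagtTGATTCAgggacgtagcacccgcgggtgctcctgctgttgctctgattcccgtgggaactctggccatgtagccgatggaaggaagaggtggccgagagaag
Fpr1, chr17:17883890-17884189, minus strand: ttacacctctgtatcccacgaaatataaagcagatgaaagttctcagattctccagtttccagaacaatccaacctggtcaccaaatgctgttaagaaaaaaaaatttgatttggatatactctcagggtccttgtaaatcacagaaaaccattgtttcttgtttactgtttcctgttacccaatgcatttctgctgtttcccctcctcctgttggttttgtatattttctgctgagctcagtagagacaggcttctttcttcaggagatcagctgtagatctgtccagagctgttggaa
Fpr2, chr17:17887574-17887873, plus strand: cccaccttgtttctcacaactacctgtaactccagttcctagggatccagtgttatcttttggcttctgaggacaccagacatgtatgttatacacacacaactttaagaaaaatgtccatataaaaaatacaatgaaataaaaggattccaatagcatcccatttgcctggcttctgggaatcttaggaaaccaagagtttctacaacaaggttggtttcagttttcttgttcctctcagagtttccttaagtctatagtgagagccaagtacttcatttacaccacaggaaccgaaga
Ltb4r1, chr14:55765712-55766011, plus strand: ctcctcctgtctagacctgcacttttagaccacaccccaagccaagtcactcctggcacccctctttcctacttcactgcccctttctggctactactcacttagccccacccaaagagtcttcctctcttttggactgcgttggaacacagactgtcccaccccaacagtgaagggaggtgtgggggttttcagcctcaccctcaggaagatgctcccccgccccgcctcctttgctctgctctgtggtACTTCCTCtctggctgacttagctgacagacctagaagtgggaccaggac
The Ffar2 window held 1 C/EBP and 1 AP-1 match, which do not overlap, and the windows of the other 3 Ffar2 starts held 1 C/EBP match each. A pair of these windows overlap and share their match, so the 4 windows hold 3 distinct C/EBP sites. The Ltb4r1 window held 1 PU.1 match, on the other strand, at the transcript start. No match to these letters was found in the windows of Fpr1, Fpr2, Gpr84 and Ptafr. A match is a description of the letters and not a measured binding site.

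After filtering, 5838 cells from sham surgery and 4805 from splenectomy were kept, with medians of 4955 and 7242 unique molecular identifiers (UMIs) per cell. Ptprc, the gene of CD45, had a UMI in 79.6% and 79.4% of them, and 9 cell barcodes occurred in both libraries. Clusters were named by marker genes that include none of the 7 receptors. Neutrophil-like cells numbered 2276 (39.0% of cells after sham surgery) and 1589 (33.1% after splenectomy), with median depths of 3320 and 3745 UMIs. The other classes compared were monocyte-like (1169 and 1219 cells), macrophage-like (1113 and 962), conventional dendritic cell-like (252 and 229), nonclassical monocyte-like (127 and 66), B cell-like (111 and 111), T cell-like (72 and 80) and endothelial cell-like (108 and 107). Another 529 and 399 cells stayed unnamed. Levels are CPM, the UMIs of a gene scaled to the UMIs of its class. In a 3' assay each transcript gives its UMIs near its end, so CPM is not scaled by gene length.

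Of the 7 members, 6 had their highest class level in CPM in neutrophil-like cells in both libraries, and Ltb4r1 was the exception after sham surgery. Classes differ in depth, so the order per cell can differ, as given below for Ffar2 and Ltb4r1. Among metabolite receptors, Hcar2 stood at 1355 CPM (interval 1330 to 1380) in neutrophil-like cells after sham surgery and at 1495 CPM (1465 to 1526) after splenectomy. The next class was nonclassical monocyte-like cells at 49.6 CPM after sham surgery and monocyte-like cells at 31.2 CPM after splenectomy, 27.3-fold and 47.9-fold lower. The nonclassical monocyte-like cells, at 20.9 CPM of Hcar2 after splenectomy, also differed in neutrophil markers, which summed to 2472 and 779 CPM. Neutrophil-like cells held 92.1% and 90.2% of all Hcar2 UMIs of the kept cells, although they were 39.0% and 33.1% of the cells.

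Gpr84 was at 123 and 132 CPM in neutrophil-like cells. The monocyte-like cells followed after sham surgery at 14.6 CPM, with intervals that overlapped those of nonclassical monocyte-like cells (11.3 CPM), and these in turn overlapped macrophage-like cells (10.4 CPM). After splenectomy, nonclassical monocyte-like cells were next at 45.9 CPM, from 22 UMIs, then monocyte-like cells at 24.6 CPM and macrophage-like cells at 18.6 CPM.

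Ffar2 was the least abundant member, with 195 UMIs in all kept cells after sham surgery and 533 after splenectomy. Its neutrophil-like level was 19.3 CPM and 77.0 CPM, and neutrophil-like cells held 80.0% and 91.4% of its UMIs. Conventional dendritic cell-like cells were the only other class with more than 20 UMIs in a library, at 7.03 and 7.68 CPM from 24 UMIs in each library, spread over 17 and 14 cells. Per 100 cells they had 9.52 and 10.5 Ffar2 UMIs, against 6.85 and 30.6 in neutrophil-like cells. After sham surgery the order per cell was thus the reverse of that in CPM. Monocyte-like cells were at 0.448 and 1.09 CPM and macrophage-like cells at 0.0564 and 0.196 CPM, the latter from 1 and 3 UMIs. No Ffar2 UMI was found in nonclassical monocyte-like or endothelial cell-like cells of either library, where 3 UMIs would have given 3.38 to 6.26 CPM.

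Among the chemoattractant and lipid mediator receptors, Fpr1 was the most concentrated, with 242 and 396 CPM in neutrophil-like cells, 21.5-fold and 14.6-fold above the next class. For Hcar2 these values were 27.3-fold and 47.9-fold. Neutrophil-like cells held 88.2% and 83.8% of its UMIs. In neutrophil-like cells Fpr2 had 213 and 301 CPM, followed by nonclassical monocyte-like cells at 50.7 and 68.9 CPM. Its neighbour Fpr1 reached only 11.3 and 27.1 CPM in that class. Ptafr was at 732 CPM and 733 CPM in neutrophil-like cells, 3.07-fold and 2.31-fold above nonclassical monocyte-like cells (239 and 317 CPM), and was found at 98.1 to 154 CPM in monocyte-like, macrophage-like and conventional dendritic cell-like cells. Per 100 cells the classes lay closer. Neutrophil-like cells had 261 and 292 Ptafr UMIs, monocyte-like cells 176 and 208 and nonclassical monocyte-like cells 167 and 230.

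Ltb4r1 had the flattest profile of the 7 across myeloid classes. After sham surgery, monocyte-like cells were highest at 185 CPM (178 to 192), followed by neutrophil-like cells at 151 CPM (143 to 160), whose interval overlapped that of conventional dendritic cell-like cells at 135 CPM. After splenectomy, neutrophil-like cells were highest at 286 CPM (273 to 300) and monocyte-like cells next at 259 CPM (252 to 267). That order holds for CPM and not per cell, since monocyte-like cells had median depths of 12885 and 12737 UMIs. Per 100 cells, neutrophil-like cells had 53.9 and 114 Ltb4r1 UMIs and monocyte-like cells 246 and 350. Macrophage-like cells (207 and 247) and conventional dendritic cell-like cells (183 and 210) were also above neutrophil-like cells. Only 17.2% and 19.9% of its UMIs lay in neutrophil-like cells, against 40.5% and 47.0% in monocyte-like cells. B cell-like cells were at 11.5 and 12.7 CPM.

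**Figure D1:**
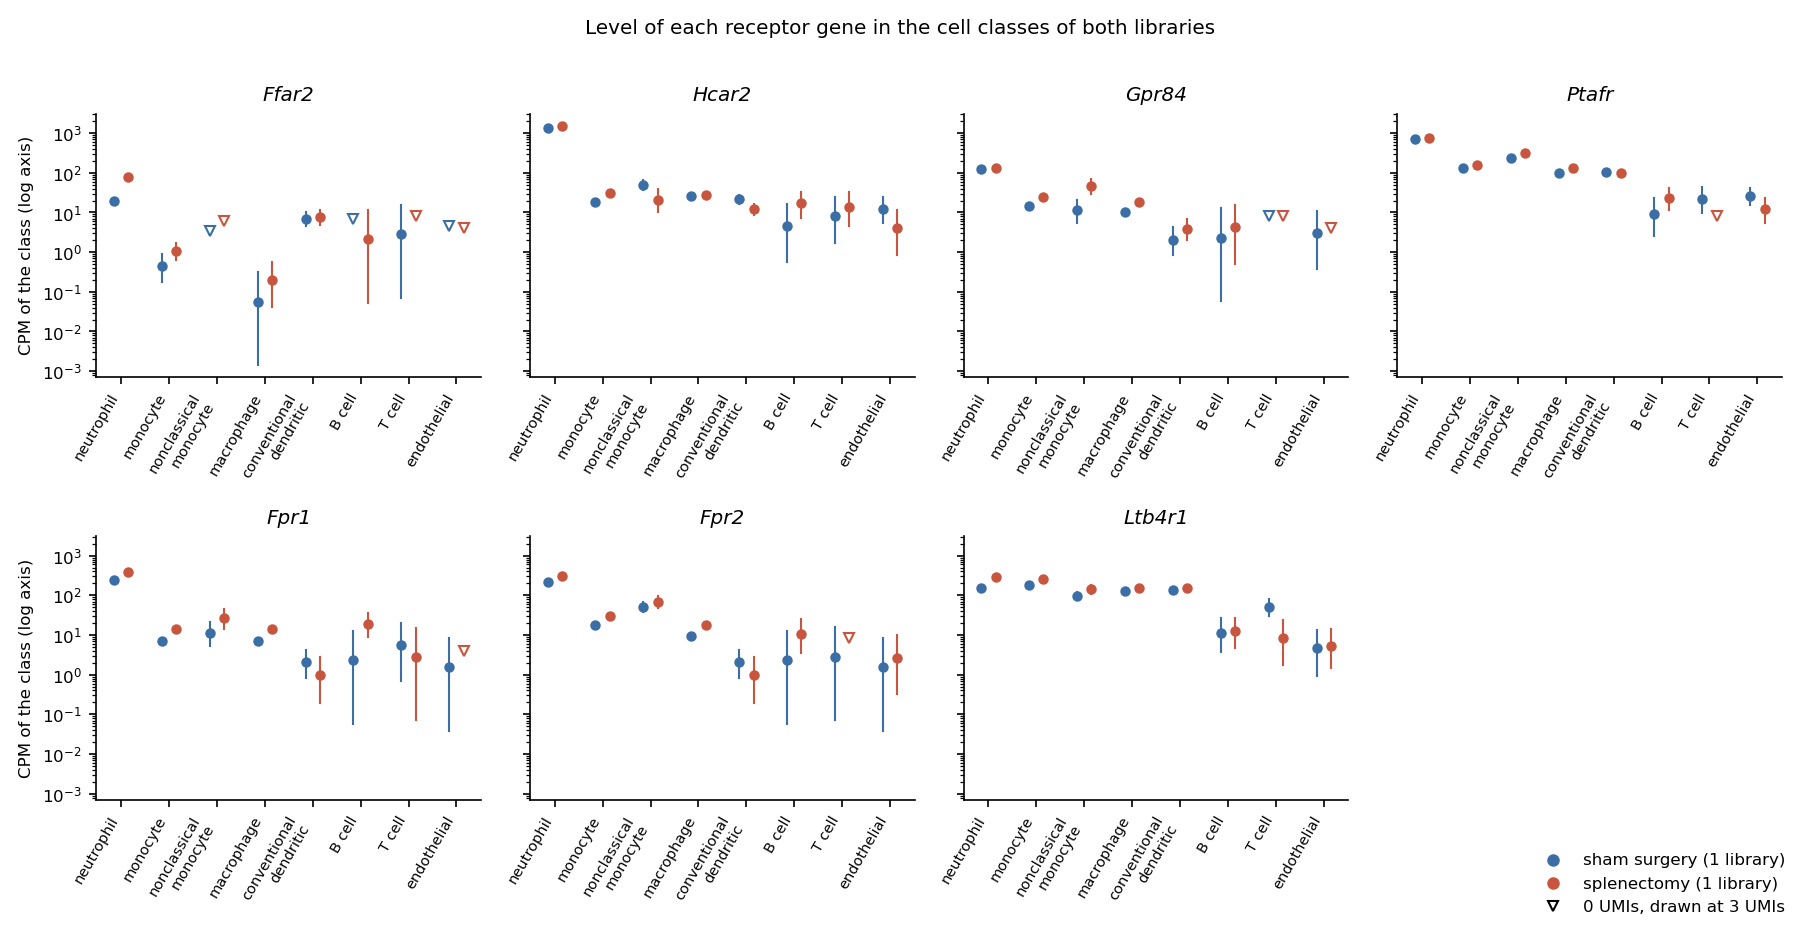
CPM of each receptor gene (log axis) in 8 cell classes, with sham surgery in blue and splenectomy in red, 1 library each. Lines are exact 95% Poisson intervals, and open triangles mark classes with 0 UMIs, drawn at the level that 3 UMIs would give. Hcar2 and Fpr1 fall steeply from neutrophil-like cells to all other classes, whereas Ltb4r1 stays between 95.8 and 286 CPM across the 5 myeloid classes.

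In neutrophil-like cells, 3 of the 7 members were at least 1.5-fold higher after splenectomy and none was lower. Over all 6079 features with at least 50 UMIs in either library, 3.19% were as much higher and 7.06% as much lower, with a median log2 ratio of -0.08, against 0.50 over the 7 members. The makeup of the class differed between the libraries. A cluster led by Retnlg and Stfa2l1 held 37.7% of the class after sham surgery and 59.8% after splenectomy, a cluster led by Csf1 and Il23a held 35.8% and 28.7%, a cluster led by the interferon-induced Ifit genes held 23.6% and 8.87%, and a small cluster held 2.86% and 2.64%.

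Ffar2 had 156 UMIs (19.3 CPM, 16.4 to 22.5) after sham surgery and 487 UMIs (77.0 CPM, 70.3 to 84.2) after splenectomy, a log2 ratio of 2.0 (1.74 to 2.27). At 2-fold it was the only member called, where 0.806% of features were as much higher. The same direction was seen in each of the larger clusters: 13.8 against 67.4 CPM in the Retnlg-led cluster, 23.1 against 92.1 CPM in the Csf1 and Il23a cluster, and 22.9 against 108 CPM in the Ifit-led cluster. The log2 ratios of 2.28, 1.99 and 2.25 there had overlapping intervals. The small cluster, of 65 and 42 cells with a median of 814 UMIs, held no Ffar2 UMI in either library. Its depth sets only a weak limit, since 3 UMIs there would have given 71.3 CPM after splenectomy.

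Ltb4r1 was at 151 CPM after sham surgery and 286 CPM after splenectomy, a log2 ratio of 0.92 (0.81 to 1.02). It was higher in the Retnlg-led cluster (177 and 305 CPM), in the Csf1 and Il23a cluster (134 and 240 CPM) and in the Ifit-led cluster (136 and 284 CPM), with log2 ratios of 0.78, 0.84 and 1.06. All of these were past 1.5-fold.

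Fpr1 was at 242 CPM after sham surgery and 396 CPM after splenectomy, a log2 ratio of 0.71 (0.62 to 0.80). Within the 3 larger clusters its log2 ratios were smaller, 0.53 in the Retnlg-led, 0.57 in the Csf1 and Il23a and 0.45 in the Ifit-led cluster, and each was under 1.5-fold. The small cluster held 5 and 10 Fpr1 UMIs (log2 ratio 1.44, -0.24 to 3.34). The gene was highest in the Retnlg-led cluster (327 and 473 CPM), which made up more of the class after splenectomy. With the clusters given equal shares in both libraries, the Fpr1 log2 ratio was 0.54 and 2 members were left past 1.5-fold. The cause of the Fpr1 difference was not tested.

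Fpr2 was at 213 CPM after sham surgery and 301 CPM after splenectomy, a log2 ratio of 0.50 (0.40 to 0.59), which missed 1.5-fold. It was 0.46 in the Retnlg-led and 0.54 in the Csf1 and Il23a cluster, but 0.03 (-0.25 to 0.30) in the Ifit-led cluster, where the 242 and 246 CPM of the libraries could not be told apart. The intervals of the Retnlg-led and the Ifit-led cluster did not overlap, and the difference between them was not tested.

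The other 3 members differed little between the libraries over the whole neutrophil-like class. Hcar2 had a log2 ratio of 0.14 (0.10 to 0.18) and was highest in the Csf1 and Il23a cluster, at 1763 CPM after sham surgery and 2124 CPM after splenectomy, against 1035 and 1259 CPM in the Retnlg-led cluster. Gpr84 had a log2 ratio of 0.10 (-0.04 to 0.23), and it too was highest in the Csf1 and Il23a cluster (184 and 195 CPM, against 93.2 and 109 CPM in the Retnlg-led cluster). Ptafr had a log2 ratio of 0.00 (-0.05 to 0.06). It was at 918 and 945 CPM in the Csf1 and Il23a cluster and at 598 and 652 CPM in the Retnlg-led cluster. In the Ifit-led cluster the log2 ratios were 0.13 for Hcar2, 0.46 (0.05 to 0.86) for Gpr84 and 0.07 for Ptafr, all under 1.5-fold. That of Hcar2 was 0.28 in the Retnlg-led and 0.27 in the Csf1 and Il23a cluster.

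**Figure D2:**
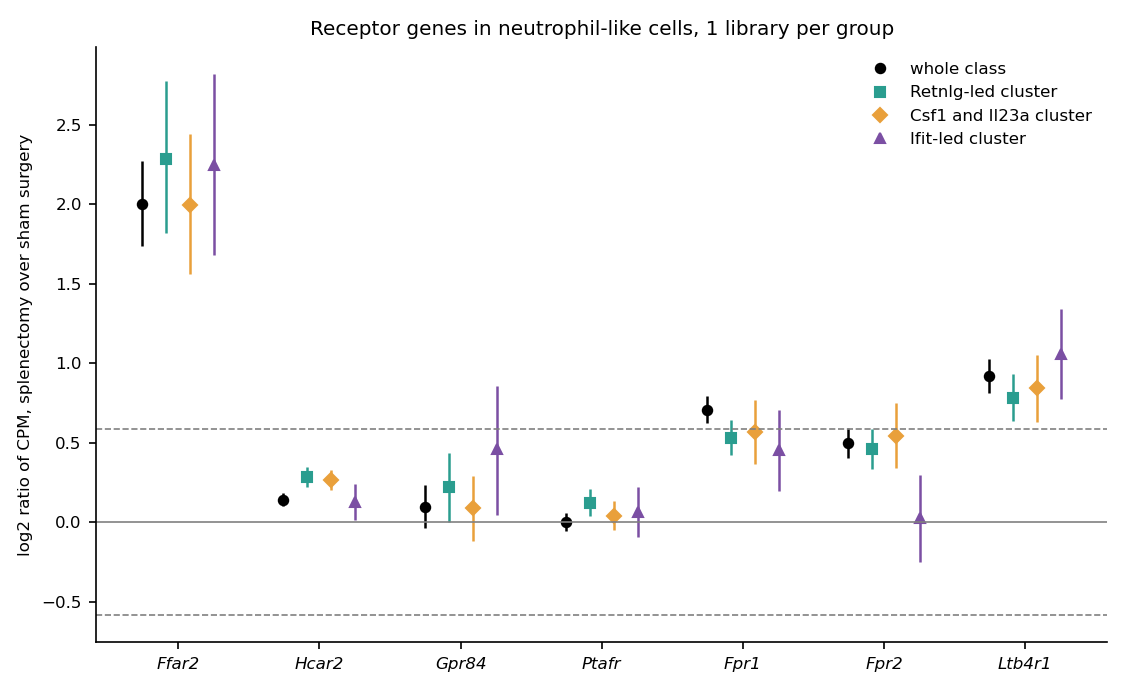
Log2 ratio of CPM, splenectomy over sham surgery, for each receptor gene in all neutrophil-like cells and in their 3 larger clusters, with exact 95% intervals for counting error. Dashed lines mark 1.5-fold in each direction. Ffar2 lies near 2 and Ltb4r1 between 0.78 and 1.06 in every cluster, while Ptafr lies between 0.00 and 0.12.

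Per cell, depth was made equal by thinning each cell to 2000 UMIs, which left out 227 and 114 shallower neutrophil-like cells. At that depth the share of neutrophil-like cells with a Ffar2 UMI was 3.37% (2.63 to 4.24) after sham surgery and 11.1% (9.50 to 12.8) after splenectomy. Without thinning it was 5.62% and 15.6%, and 4 and 53 cells held 3 or more Ffar2 UMIs. The Fpr1 share was 27.3% and 42.0%, that of Fpr2 28.6% and 39.1%, and that of Ltb4r1 23.9% and 37.9%. Their unthinned shares were 36.4% and 54.4% for Fpr1, 40.7% and 53.8% for Fpr2, and 34.3% and 55.3% for Ltb4r1. For Hcar2 (71.7% and 73.8%), Gpr84 (17.1% and 18.1%) and Ptafr (68.2% and 69.0%) the intervals of the thinned shares overlapped. In B cell-like cells, a class that should lack these receptors and had median depths of 3491 and 3689 UMIs, no thinned share exceeded 2 cells in 100.

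**Figure D3:**
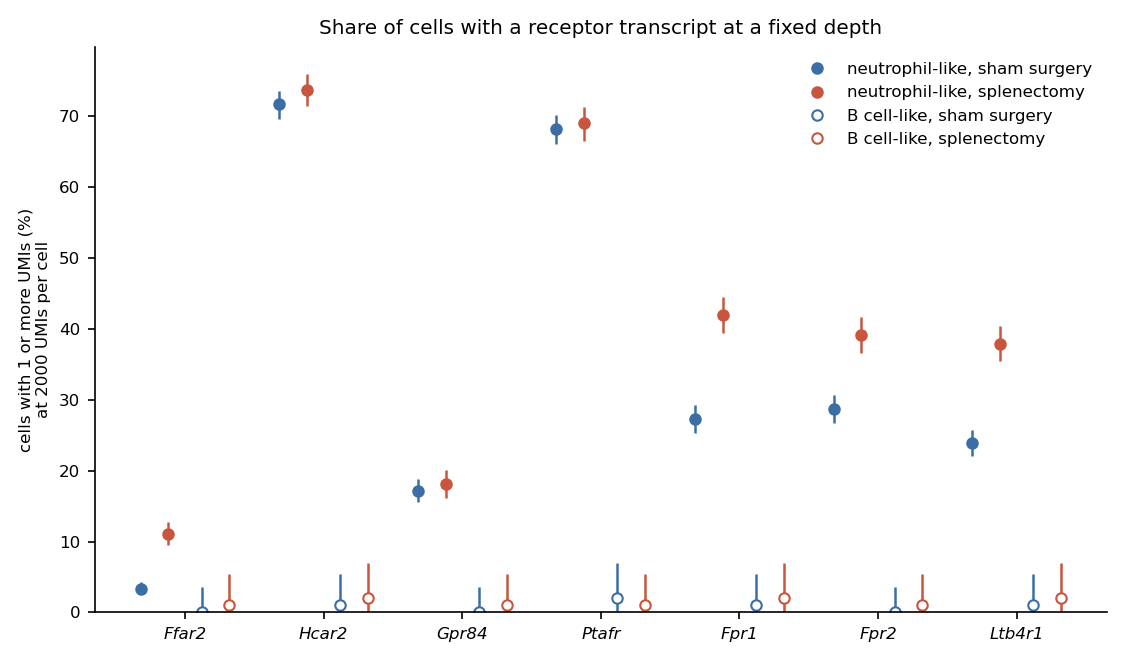
Share of cells (%) with 1 or more UMIs of each receptor gene after thinning every cell to 2000 UMIs, in neutrophil-like cells (filled) and B cell-like cells (open), with exact 95% binomial intervals. Ffar2, Fpr1, Fpr2 and Ltb4r1 were found in a larger share of neutrophil-like cells of the splenectomy library, and B cell-like cells stayed at or below 2%.

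The receptors found in each cell were also counted. A thinned neutrophil-like cell held UMIs of 2.40 of the 7 genes on average after sham surgery and of 2.91 after splenectomy. Of the 7, 4 or more were found in 338 of 2049 and 468 of 1475 cells. The mean is the sum of the single-gene shares above. Whether the receptors occurred together beyond those shares was not tested. Retnlg, a transcript of young neutrophils, had a level of 878 CPM in neutrophil-like cells after sham surgery and 2634 CPM after splenectomy, so the thinned cells were split by it. Fpr1 was found in 39.5% of cells with a Retnlg UMI and 22.5% of those without after sham surgery, and in 51.4% and 34.4% after splenectomy. Ffar2 went the other way, with 2.07% against 3.88% after sham surgery and 8.94% against 12.8% after splenectomy, although the intervals overlapped in both. Gpr84 was likewise found less often in cells with Retnlg, in 11.9% against 19.2% after sham surgery and 14.2% against 21.2% after splenectomy. Among cells without a Retnlg UMI, the shares of Ffar2, Fpr1, Fpr2 and Ltb4r1 were higher after splenectomy (33.4% against 27.4% for Fpr2 and 37.5% against 23.6% for Ltb4r1). A lack of a Retnlg UMI at this depth does not make the maturity of cells equal. The part of maturity in these shares was not tested.

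In monocyte-like cells, 4 of the 6 members with at least 50 UMIs were 1.5-fold or more higher after splenectomy and none was lower, where 2.73% of 8684 features were as much higher and 4.26% as much lower. Fpr1 stood at 7.05 and 14.04 CPM (log2 ratio 0.99), Fpr2 at 17.7 and 30.4 CPM (0.78), Gpr84 at 14.6 and 24.6 CPM (0.75) and Hcar2 at 18.8 and 31.2 CPM (0.73). Ltb4r1, at 185 and 259 CPM (0.49), and Ptafr, at 132 and 154 CPM (0.23), did not reach 1.5-fold. No member reached 2-fold, which 0.760% of features did. The makeup of this class also differed between the libraries. A cluster led by Ms4a4c and Plac8 held 64.2% of it after sham surgery and 33.2% after splenectomy. A cluster led by Inhba and F10 held 21.3% and 41.2%, and a cluster led by Mgst1 and Ly6c2 held 14.5% and 25.6%. With equal cluster shares in both libraries, 1 member was left past 1.5-fold.

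Some neutrophil markers also differed between the libraries in this class, and others did not. Of 10 neutrophil markers in monocyte-like cells, 4 were higher and 1 was lower, and their summed level was 948 CPM after sham surgery and 3072 CPM after splenectomy, with none at 0. S100a8 went from 446 to 1998 CPM, S100a9 from 207 to 523 CPM and Retnlg from 1.67 to 7.54 CPM. Csf3r, also among the 10 (28.8 and 27.3 CPM), and Cxcr2, which is outside that list (3.59 and 4.62 CPM), had no such difference. In neutrophil-like cells S100a9 was higher than S100a8, at 54006 and 71133 CPM against 43438 and 55844 CPM. Among the 859 and 607 monocyte-like cells with at most 5 UMIs of S100a8 and S100a9, a limit chosen after seeing the data, the log2 ratios were 0.97 for Hcar2, 0.87 for Gpr84, 0.56 for Fpr1 and 0.56 for Fpr2, so that 2 members remained past 1.5-fold. The part of neutrophil RNA in any of the receptor ratios was not tested.

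Within the monocyte-like clusters, the Hcar2 difference lay in the Inhba and F10 cluster, at 25.3 against 51.1 CPM (log2 ratio 1.02). In the Ms4a4c and Plac8 cluster it was -0.01, from 16.5 and 16.4 CPM, and in the Mgst1 and Ly6c2 cluster -0.36 (-0.96 to 0.25), from 18.8 and 14.6 CPM. Its ratio over the whole class depended on how cells were grouped and fell to -0.36 with coarser clusters. Fpr1 differed most in the Mgst1 and Ly6c2 cluster, at 3.67 and 17.3 CPM from 8 and 70 UMIs, and was at 5.25 and 5.01 CPM in the Ms4a4c and Plac8 cluster. Ltb4r1 was higher after splenectomy in each of them, with log2 ratios of 0.40, 0.39 and 0.78 in the order Ms4a4c, Inhba and Mgst1.

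In macrophage-like cells, 3 of 6 members with enough counts were higher and none was lower, against 1.86% and 2.73% of 9189 features. These were Fpr1 (7.11 and 14.5 CPM, log2 ratio 1.03), Fpr2 (9.31 and 18.3 CPM, 0.97) and Gpr84 (10.4 and 18.6 CPM, 0.83). Fpr1 alone reached 2-fold, against 0.414% of features. Neutrophil markers summed to 515 and 815 CPM in this class (5 of 10 higher, 1 lower). S100a8 was at 219 and 432 CPM and Retnlg at 1.30 and 10.8 CPM. Among the 883 and 676 cells with at most 5 UMIs of S100a8 and S100a9, the 3 log2 ratios were 0.96, 0.78 and 0.97. A cluster led by Ccl24 and Serpinb2 made up 5.12% of the class after sham surgery and 16.2% after splenectomy, and it carried the highest Fpr1 (49.3 and 59.1 CPM) and Fpr2 (60.9 and 69.0 CPM) of the macrophage-like clusters. The other 3 were at 2.69 to 6.45 CPM for Fpr1 and 5.37 to 10.2 CPM for Fpr2. Within the Ccl24 cluster the Fpr1 log2 ratio was 0.26 (-0.26 to 0.82). In the other 3 it was 0.18 (-0.35 to 0.71), 0.37 (-0.88 to 1.65) and 0.79 (-0.81 to 2.53). The name of the Ccl24 cluster was a close call, with a marker score of 1.47 for macrophage and 1.36 for monocyte. With equal cluster shares in both libraries, 1 member was left past 1.5-fold in this class.

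Macrophage-like clusters differed in Ltb4r1 more than in any other member. The Spp1 and Fabp5 cluster, whose leading genes also include Arg1 and Gpnmb, was at 174 CPM after sham surgery and 224 CPM after splenectomy, and the Ccl24 cluster at 157 and 173 CPM. The cluster led by Lyve1, Folr2 and Cd163, genes of resident heart macrophages, was at 2.69 and 8.35 CPM, from 6 and 18 UMIs. The cluster led by Gdf15 and Mmp12 was at 4.44 and 12.2 CPM. The same Gdf15 cluster was the highest of the 4 for Gpr84, at 31.1 and 50.5 CPM, against 10.7 and 12.1 CPM in the Lyve1 cluster. Ptafr was present in all 4, from 79.1 CPM in the Spp1 cluster after sham surgery to 192 CPM in the Lyve1 cluster after splenectomy and in the Ccl24 cluster after sham surgery. Hcar2 lay between 18.9 and 33.6 CPM in all 4 clusters of both libraries.

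**Figure D4:**
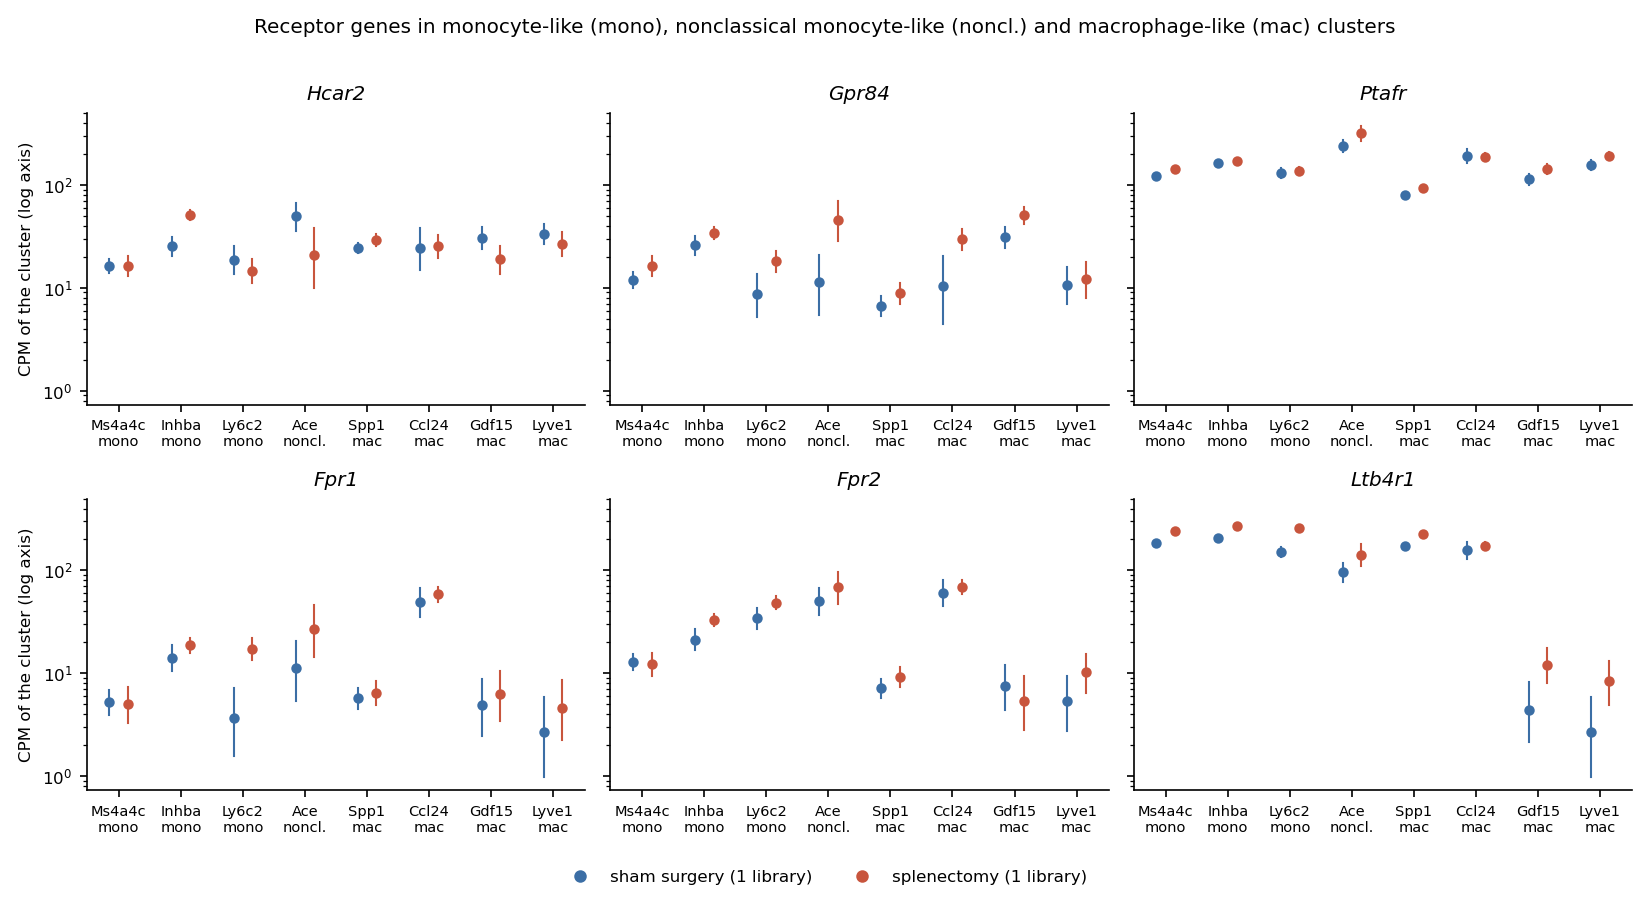
CPM (log axis) of 6 receptor genes in 3 monocyte-like, 1 nonclassical monocyte-like and 4 macrophage-like clusters, named by a leading gene, with sham surgery in blue and splenectomy in red and exact 95% Poisson intervals. Ltb4r1 falls to 2.69 to 12.2 CPM in the Gdf15 and Lyve1 clusters, and Fpr1 and Fpr2 peak among macrophage-like clusters in the Ccl24 cluster.

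In conventional dendritic cell-like cells, 3 members had enough counts. Hcar2 was lower after splenectomy, at 21.4 and 12.2 CPM from 73 and 38 UMIs (log2 ratio -0.81, -1.42 to -0.23). A single cell after sham surgery held 20 of the 73 UMIs, and the share of cells with a Hcar2 UMI was 10.3% and 10.9%. Without the highest cell of each library, a choice made after seeing the data, the levels were 15.6 and 10.6 CPM (log2 ratio -0.56, -1.23 to 0.10), which is under 1.5-fold. In this class 3.24% of 5466 features were as much lower and 2.85% as much higher. Neutrophil markers in this class summed to 1141 and 1109 CPM, with 2 higher and 5 lower, among them Csf3r at 18.7 and 10.2 CPM. The part of neutrophil RNA in the Hcar2 value was not tested. Ptafr (102 and 98.9 CPM) and Ltb4r1 (135 and 154 CPM) stayed under 1.5-fold. In nonclassical monocyte-like cells, Ptafr (log2 ratio 0.41) and Ltb4r1 (0.57) had enough counts, and neither reached 1.5-fold, against 2.34% of 2479 features higher and 7.83% lower. Neutrophil markers in this class summed to 2472 CPM after sham surgery and 779 CPM after splenectomy, with 7 of 8 lower, none higher and none at 0, and their part in the receptor levels was not tested. No member had 50 UMIs in B cell-like, T cell-like or endothelial cell-like cells.

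Other genes of these pathways were taken from 6 lists. The lists were chosen with earlier results of these data known, so their counts are a description. In neutrophil-like cells 10 of the listed genes were higher and 3 were lower, and 8 of those higher belong to the list of neutrophil maturation. Over all features with enough counts, 3.19% were as much higher and 7.06% as much lower. Of 9 other chemoattractant receptors with enough counts, none was higher and 1 was lower: Cysltr1, a receptor of cysteinyl leukotrienes, with 106 and 48 UMIs (log2 ratio -0.79). Ccrl2 (3338 and 2688 CPM), Ccr1 (1653 and 1731 CPM), the chemokine receptor Cxcr2 (1056 and 1107 CPM) and the complement receptor C5ar1 (772 and 841 CPM) did not reach 1.5-fold, and the list's median log2 ratio was -0.30. Of 9 other metabolite receptors, Adora2b, a receptor for adenosine, was higher (12.3 and 23.7 CPM, log2 ratio 0.94) and Lpar6, a receptor for lysophosphatidic acid, was lower (59 and 30 UMIs, -0.62), and the median was 0.02. Gpr35 stood at 244 and 249 CPM.

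None of 30 genes that relay the signal of Gi-coupled receptors, from G protein subunits to the NADPH oxidase, was past 1.5-fold, and their median was -0.06. The 4 with the most UMIs were Gnai2 (1078 and 1018 CPM), Gng5 (1034 and 961 CPM), Cyba (899 and 1093 CPM) and Rac2 (886 and 798 CPM). Of 12 genes that switch such receptors off, Rgs10 was lower (31.1 and 16.6 CPM, log2 ratio -0.91) and the median was -0.22. Of 11 genes that make or remove ligands, Saa3, a serum amyloid A protein that can bind Fpr2, was higher (47.8 and 125.6 CPM, log2 ratio 1.39), and the median was -0.03. Alox5ap, which serves leukotriene synthesis, was at 1437 and 1352 CPM. Saa3 was also higher in monocyte-like cells (245 and 964 CPM) and macrophage-like cells (220 and 513 CPM).

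The list with the most genes past 1.5-fold was that of neutrophil maturation, with 8 of 15 genes higher, none lower and a median log2 ratio of 0.94. Over all features, 3.19% were as much higher and 7.06% as much lower. This list too was chosen with earlier results of these data known. It included Ngp (log2 ratio 2.56), Cd177 (2.42), Retnlg (1.58), Wfdc21 (1.25), Lcn2 (1.24), Chil3 (1.16), Ly6g (1.04) and Mmp8 (0.94). The part of neutrophil maturation in the receptor ratios was not tested, and the split of cells by Retnlg and the values within clusters are descriptions.

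The genes whose levels followed each member most closely were found over 38 profiles, 19 clusters in 2 libraries, by Pearson's r of log2(CPM + 10) among 9297 features. The profiles share libraries and neutrophil-like clusters stand far from the rest, so r is a description. Hcar2 was closest to Il1f9 (0.97), the gene of interleukin-36 gamma, and Chil1 (0.97). Fpr1 was closest to Acod1 (0.95), the itaconate-making enzyme, and then to its neighbour Fpr2 (0.94), and Fpr2 to Sgms2 (0.95) and Acod1 (0.94). Ptafr was closest to Igsf6 (0.95) and Nlrp3 (0.95), a sensor of the inflammasome, and Gpr84 to Tlr13 (0.93), an endosomal receptor of bacterial RNA, and Ccrl2 (0.93). Ltb4r1 had lower values, with Sirpb1c at 0.89 and Tarm1 at 0.88. Ffar2 was closest to Olfm4 (0.93), a granule protein of a subset of neutrophils, and Il1bos (0.87).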

How the data were processed

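The UMI counts of each gene in each barcode were used as deposited by the authors. Per the file headers they come from Cell Ranger 5.0.0, and per the submitters' processing notes STAR and the mouse build mm10 were used. The annotation used for counting is unknown. Libraries held 6210 and 5087 barcodes with 53512625 and 48024013 UMIs. Cells under 200 genes or over 20% mitochondrial UMIs were left out, and doublets were removed by the highest Scrublet scores, 8 per 1000 cells for each 1000 cells (302 and 200 cells). The threshold Scrublet set by itself called 2.11% and 0.0590% and was not used.

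Both libraries were clustered together in scanpy (2000 variable genes, 30 components, 15 neighbours, Leiden resolution 1.0, seed 7). The receptors and the related genes were kept out of the variable genes unless they are markers. Of the 129 related genes, those listed only under neutrophil maturation were not kept out, so they could shape the clusters. The 22 clusters were named by markers of 20 classes. This handling of gene classes was chosen after 3 were seen, with cell numbers in view. The neutrophil-like class had the same number of cells in all 3. A name needed at least 3 markers in 25% of cells and no more markers of another class than of its own among the 10 leading genes. Rebuilt names may differ from the study's.

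UMIs were summed per class and library. A gene was called at 1.5-fold with at least 50 UMIs in either library. Poisson, binomial and ratio intervals are exact at 95%. Likeness was taken among features with at least 200 UMIs, leaving out predicted, ribosomal, mitochondrial, haemoglobin and immune receptor variable genes. Named genes are the members, up to 4 genes of each list with the most UMIs, called list genes and the 3 most alike, of which at least 2 are given. Csf3r, S100a8, Cxcr2, Retnlg and Ptprc are named as markers. Members and lists were chosen with earlier results of these data known. Steps were tested on simulated counts. A total of 15 planned and 5 added alternatives were run. Software was scanpy 1.11.5 with leidenalg 0.10.2 and igraph 0.11.9, scikit-learn 1.9.0, scipy 1.17.1, pandas 2.3.3 and numpy 2.4.6 in python 3.11.15, and figures were drawn with matplotlib 3.10.9.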

Additional observations from a re-analysis of the deposited data

Results flagged for a closer look

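Hcar2 differed in opposite directions in 2 classes: its log2 ratio, splenectomy over sham surgery, was 0.73 in monocyte-like cells and -0.81 in conventional dendritic cell-like cells, with 1 library behind each value. The difference between the classes was not tested. The monocyte-like value changed sign with the grouping of cells, and the dendritic cell-like value rests on 73 and 38 UMIs, 20 of them in a single cell after sham surgery. Without the highest cell of each library it was -0.56 (-1.23 to 0.10), and cells with a Hcar2 UMI made up 10.3% and 10.9% of the class.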

How the results depend on the processing

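No paired analysis was possible because each group is 1 library and the labels give no replicate numbers. In neutrophil-like cells the log2 ratios ranged from 1.98 to 2.19 for Ffar2, 0.81 to 0.98 for Ltb4r1, 0.54 to 0.77 for Fpr1 and 0.41 to 0.56 for Fpr2 over the 18 alternatives that apply, and 3 members were past the limit except where clusters were given equal shares (2) or 2-fold was asked (1, against 0.806% of features). At 2-fold no related gene was lower (0, against 3). Between 6 and 7 members had their highest level in neutrophil-like cells. The members higher in monocyte-like cells numbered 2 at Leiden resolution 0.5, 2 at resolution 2.0, 2 with no gene class left out of the variable genes, 2 among cells with few S100a8 and S100a9 UMIs, 1 with equal cluster shares and 0 at 2-fold, against 4. Those higher in macrophage-like cells numbered 1 with at least 500 genes per cell, 1 with at most 10% mitochondrial UMIs, 1 with equal cluster shares, 1 at 2-fold, 1 with Rik genes also left out of the variable genes and 0 after thinning to 2000 UMIs, but 4 at resolution 0.5, against 3. The Ltb4r1 log2 ratio in macrophage-like cells had the widest range of the members' ratios, from -0.08 with no gene class left out to 5.17 with libraries clustered apart, and moved beyond its counting interval in 12 of 20 alternatives, against 0.25. That of Hcar2 in conventional dendritic cell-like cells ranged from -1.41 to -0.35 over 18 alternatives and was under 1.5-fold without the highest cell of each library (-0.56), with libraries clustered apart (-0.55), with cells weighted equally (-0.40) and with cells classed by their own markers (-0.35). The Hcar2 log2 ratio in monocyte-like cells turned to -0.36 at resolution 0.5, -0.15 with libraries clustered apart and -0.0066 with no gene class left out, and that of Gpr84 in macrophage-like cells to -0.30 with libraries clustered apart. The causes were not tested. Depth limits Ffar2 in nonclassical monocyte-like and endothelial cell-like cells, where 3 UMIs would have given 3.38 to 6.26 CPM, but less so in monocyte-like and macrophage-like cells (0.169 to 0.196 CPM). Without animal replicates, counting intervals say nothing of the spread between mice.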
